A study of Mus musculus with 30 samples.

Results

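Hypertonic stress draws water out of cells, and cells answer by gathering small organic molecules, the osmolytes, which restore their volume without disturbing proteins as salt does. The 7 genes described here belong to that answer. Akr1b3 encodes aldose reductase, which makes sorbitol from glucose. Slc5a3, Slc6a6 and Slc6a12 encode the carriers that bring in myo-inositol, taurine and betaine, and Slc38a2 encodes a carrier of neutral amino acids. Nfat5, also called TonEBP, is the transcription factor known to drive most of these genes by binding the tonicity response element, TonE. Sgk, now Sgk1, is a serum- and glucocorticoid-induced kinase of ion and osmolyte transport, and it is also a known osmotic stress gene.

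The genes were taken by the gene name printed for each spot in the array files, and every probe was kept apart from the others of its gene. This gave 17 of 41174 probes, for 7 of 21689 named genes: 5 for Nfat5, 4 for Slc38a2, 3 for Akr1b3, 2 for Slc6a6 and 1 each for Slc5a3, Slc6a12 and Sgk. All 17 probes were measured on all 30 arrays.

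The study asked how the stress-activated kinase p38 contributes to gene expression in mouse embryonic fibroblasts (MEFs) under different stresses. RNA of wild type MEFs and of p38α-/- MEFs was labelled with Cy5 and hybridised beside a Cy3 pool of untreated wild type cultures on 2-colour arrays, with 2 arrays in each of 15 groups. Wild type MEFs received NaCl (100 mM) for 45 min, 2 h or 8 h, anisomycin, an inhibitor of translation (25 ng/ml), for 45 min, or TNFα, an inflammatory cytokine (100 ng/ml), for 45 min, each with or without SB203580, an inhibitor of p38α and p38β, and 1 group had SB203580 with no stress. The p38α-/- line was left untreated or was given NaCl for 2 h, anisomycin for 45 min or TNFα for 45 min at the same doses. The treatment description gives SB203580 as 10 μM from 30 min before the stress, whereas the sample titles give 10 mM for 2 h. Each genotype is represented by an established cell line, so a difference between genotypes is also a difference between lines. No untreated wild type sample was hybridised on its own and no dyes were swapped, so a ratio to the pool leaves out the spread between untreated cultures and keeps any dye effect, which cancels in a difference between 2 groups.

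All values below are log2 ratios of sample to pool or differences between them, given for the first and second array of a group, with the mean ± SD (n = 2). The scanner software marked 131 of the 510 member spots (25.7%) as outliers in either channel, among them 11 of the 17 on the second array of wild type MEFs at 45 min of NaCl. A difference was tested in limma on unmarked spots where every array concerned had one, and also with all spots kept. The p-values named below are adjusted over all probes, with "all spots" added where marked spots were kept, and a probe was called at an adjusted p under 0.05. No member spot was saturated. Mapk14, the gene for p38α, lay between -2.24 and -0.94 on the 8 p38α-/- arrays and between 0.03 and 1.31 on the 22 wild type arrays. Of 17 probes for fibroblast markers 16 were well above background in Cy3 on every array, and of 5 for blood markers 2 were. The epithelial, endothelial and kidney tubule lists had 3 of 3, 3 of 4 and 3 of 4 such probes. After 8 h of NaCl, with all spots, 2 fibroblast probes were higher and 1 lower than the pool, 1 epithelial probe was higher, 1 blood and 1 endothelial probe were lower, and no kidney tubule probe was called, beside 9.63% of all probes higher and 12.8% lower. The part of these markers in the results below was not tested.

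The promoters of 4 members are shown to mark where TonE letters did or did not occur. The RefSeq promoter table (build GRCm38.p6) held 14 start sites for 5 of the 7 genes, and none for Akr1b3 and Slc6a6. The Slc5a3 window, not shown, held no TGGAAA or TonE. Each sequence below is the 250 bases before a start site, 5′ to 3′ on the gene's strand. They lie at chr6:121342324-121342573 (Slc6a12, plus strand, 1 of 5 start sites), chr10:21993640-21993889 (Sgk1, plus strand, 1 of 6 start sites), chr15:96699729-96699978 (Slc38a2, minus strand) and chr8:107293220-107293469 (Nfat5, plus strand). Capitals mark 2 kinds of match on either strand: TGGAAA, the first letters of the TonE motif, carried on to the end of TonE where all of it matched, and GGGCGG, the box bound by Sp1.
Slc6a12: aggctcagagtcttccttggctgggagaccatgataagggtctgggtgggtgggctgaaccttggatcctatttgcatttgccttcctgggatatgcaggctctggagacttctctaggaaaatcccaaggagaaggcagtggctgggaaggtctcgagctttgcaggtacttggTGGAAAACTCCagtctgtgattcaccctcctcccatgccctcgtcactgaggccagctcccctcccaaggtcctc
Sgk1: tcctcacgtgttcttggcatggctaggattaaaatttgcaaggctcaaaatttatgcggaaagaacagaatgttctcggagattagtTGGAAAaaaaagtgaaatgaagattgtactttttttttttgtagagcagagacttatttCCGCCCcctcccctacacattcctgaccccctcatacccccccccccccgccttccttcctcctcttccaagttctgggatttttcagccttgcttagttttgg
Slc38a2: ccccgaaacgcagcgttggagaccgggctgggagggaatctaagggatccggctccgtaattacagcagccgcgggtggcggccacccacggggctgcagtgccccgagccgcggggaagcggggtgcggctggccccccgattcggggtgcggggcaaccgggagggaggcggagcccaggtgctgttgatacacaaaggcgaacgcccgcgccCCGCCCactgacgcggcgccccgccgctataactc
Nfat5: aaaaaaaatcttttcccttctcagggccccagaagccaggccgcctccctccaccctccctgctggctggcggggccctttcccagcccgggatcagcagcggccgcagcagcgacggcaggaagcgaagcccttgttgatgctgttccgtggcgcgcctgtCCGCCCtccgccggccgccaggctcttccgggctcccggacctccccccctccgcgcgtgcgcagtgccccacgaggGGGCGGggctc
The Slc6a12 window held a whole TonE from -75 to -65, counted from the start site, and was the 1 window of 5 for this gene with TGGAAA or TonE. The Sgk1 window held TGGAAA from -163 to -158, as did 2 of 6 Sgk1 windows at any place, and none of the 6 held TonE. The Slc38a2 and Nfat5 windows held no TGGAAA, and held GGGCGG at 1 and 2 places. Over windows of 300 bases, which add 50 bases after the start, TGGAAA was present in 3 of the 14 member windows (21.4%) and in 21.4% of all 32851 windows. TonE was present in 1 of 14 (7.14%) and in 4.96% of all windows. A match is a run of letters and no evidence of binding.

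The members had their widest range in the NaCl groups. Anisomycin and TNFα were measured at 45 min only. At 2 h and 8 h the kind of stress and its time thus cannot be told apart. In wild type MEFs Akr1b3, Sgk, Slc38a2, Slc6a6 and Nfat5 each had a probe well above the pool after 8 h of NaCl, whereas Slc5a3 and Slc6a12 did not. Against the pool, 0 of 6 testable member probes were higher at 45 min (5.88% of all probes tested), 2 of 12 at 2 h (6.33%) and 3 of 8 at 8 h (10.5%), while 2, 1 and 0 were lower (5.89%, 6.14% and 10.1%). With all spots and 17 probes 4 (5.55% of all probes), 5 (7.49%) and 10 (9.63%) were higher, and 3, 1 and 0 were lower (13.7%, 12.3% and 12.8%). Between times, 1 of 17 rose from 45 min to 2 h (0.0704%), 7 from 2 h to 8 h (3.2%) and 8 from 45 min to 8 h (3.7%) with all spots. On unmarked spots it was 0 of 5 (0.0855%; 1 at an unadjusted p under 0.05), 1 of 5 (3.34%) and 0 of 3 (3.03%; 2 at an unadjusted p under 0.05). A mean of at least 2.5-fold, the size the study used, was reached with all spots by 0, 3 and 8 member probes, against 0.471%, 0.67% and 1.13% of all probes. At 8 h the median of the 17 probes was 0.71, beside -0.03 over all probes. These are ratios of RNA in whole cultures, in which fewer expressing cells and less RNA per cell cannot be told apart.

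**Figure D1:**
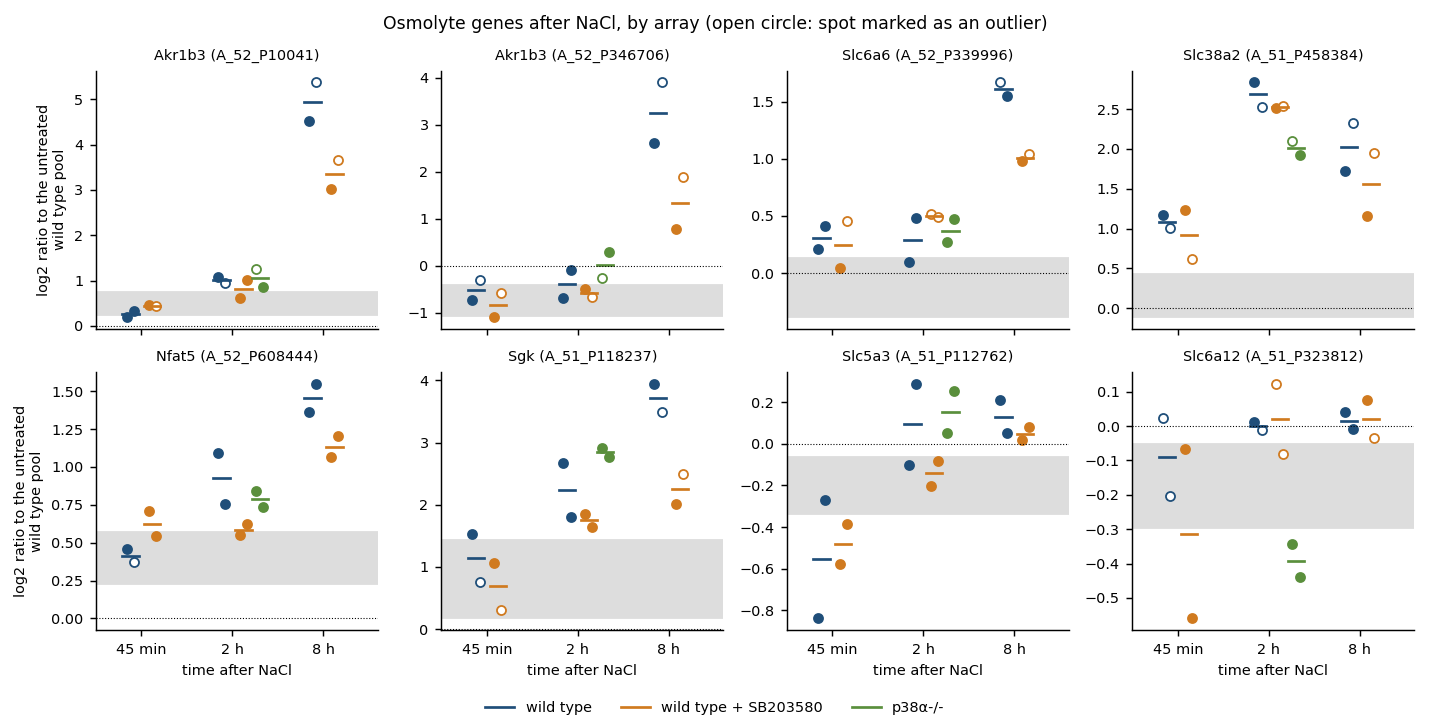
Log2 ratio to the untreated pool (y axis) against time after NaCl (x axis) for 8 member probes in wild type MEFs (blue), wild type MEFs with SB203580 (orange) and p38α-/- MEFs (green). Points are arrays (open where the spot was marked as an outlier), bars are means, and the grey band spans the arrays of SB203580 alone and of untreated p38α-/- MEFs. Akr1b3 probe A_52_P10041 reaches 4.52 and 5.37 at 8 h in wild type MEFs, where the Slc5a3 points read 0.21 and 0.05 and the Slc6a12 points 0.04 and -0.01.

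Akr1b3, the sorbitol-making enzyme, gave the highest ratios of the set. Its probe A_52_P10041 (NM_009658) read 0.19 and 0.33 at 45 min of NaCl, 1.08 and 0.94 at 2 h, and 4.52 and 5.37 at 8 h, where the last value of each later pair came from a marked spot. The values of the 3 times did not overlap, and the 8 h arrays stood far above the rest. The mean was 1.01 ± 0.10 at 2 h (adjusted p = 0.000724, all spots) and 4.95 ± 0.60 at 8 h, or 30.9-fold (adjusted p = 1.45e-11, all spots). The difference between 8 h and 2 h was 3.94 (95% interval 3.42 to 4.46, adjusted p = 1.3e-07, all spots). This probe was above the pool on all 30 arrays, the lowest at 0.04.

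Another Akr1b3 probe from the same transcript record, A_52_P346706, lay below the pool before it lay above it. It read -0.73 and -0.29 at 45 min, -0.68 and -0.09 at 2 h, and 2.61 and 3.91 at 8 h, a mean of 3.26 ± 0.92 or 9.56-fold (adjusted p = 9.18e-07, all spots). Both probes thus showed the 8 h arrays highest, and the second probe rose by 3.64 between 2 h and 8 h (adjusted p = 6.14e-05, all spots). The third probe, A_51_P422666, carries the cDNA record AK054167 and behaved otherwise. It was below the pool on all 30 arrays, from -2.06 to -0.08, and well above background in Cy5 on 19 of them. At 8 h of NaCl it read -0.23 and -0.70. In 3 groups it was not well above background on either array, and there only a bound holds: at least 2.47-fold lower than the pool at 45 min of NaCl, at least 2.05-fold lower at 2 h of NaCl with SB203580, and at least 1.92-fold lower in p38α-/- MEFs at 2 h of NaCl. Whether probes of one gene differ from each other was not tested here, for any member.

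**Figure D2:**
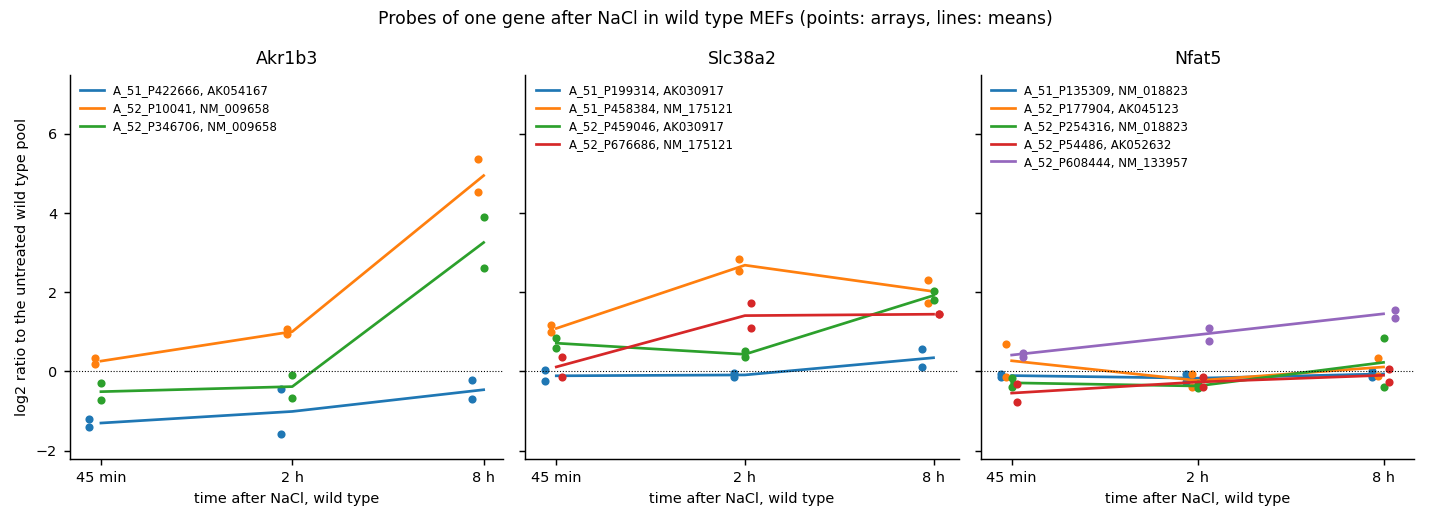
Log2 ratio to the pool (y axis) over time after NaCl (x axis) in wild type MEFs for the 3 Akr1b3, 4 Slc38a2 and 5 Nfat5 probes. Points are arrays and lines join means: 2 of 3 Akr1b3 probes climb at 8 h and A_51_P422666 stays below 0, and of the Nfat5 probes A_52_P608444 has the highest 8 h mean, 1.46.

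Among the carriers, Slc38a2 moved first. Its probe A_51_P458384 (NM_175121) read 1.17 and 1.01 at 45 min, 2.84 and 2.53 at 2 h, and 1.72 and 2.32 at 8 h, with the second array marked each time. All 6 arrays were above the pool, the highest at 2 h. The means were 1.09 ± 0.11 (adjusted p = 0.000341), 2.68 ± 0.21, or 6.43-fold (adjusted p = 3.8e-08), and 2.02 ± 0.43 (adjusted p = 2.18e-07), all with all spots. The rise of 1.60 from 45 min to 2 h was called (adjusted p = 0.0164, all spots), though it fell short without either 45 min array (1.68 and 1.52, adjusted p = 0.0925 and 0.129) and without the first 2 h array (1.45, adjusted p = 0.0778). The step from 2 h to 8 h was -0.66 (arrays -1.12 and -0.21) and was not called.

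Slc38a2 probe A_52_P676686, from the same record, followed with lower values: 0.37 and -0.14 at 45 min, 1.73 and 1.09 at 2 h (1.41 ± 0.45, adjusted p = 7.18e-05, all spots), and 1.44 and 1.45 at 8 h (adjusted p = 0.000172). Its difference of 1.30 between 2 h and 45 min missed the threshold (adjusted p = 0.0572, all spots) and passed it with the replicate block (adjusted p = 0.0212, all spots). Probe A_52_P459046, for the cDNA record AK030917, had another time course, with 0.84 and 0.59 at 45 min, 0.51 and 0.36 at 2 h, and 1.82 and 2.02 at 8 h. Its 8 h mean of 1.92 ± 0.15 was called (adjusted p = 1.56e-06), as was the rise of 1.49 from 2 h to 8 h (adjusted p = 0.00152). The 2 h mean of 0.43 was called only with the replicate block (adjusted p = 0.129 without it, 0.0326 with it). So the NM_175121 probes had risen by 2 h, and this one stood highest at 8 h. The other AK030917 probe, A_51_P199314, read 0.57 and 0.12 at 8 h (0.35, adjusted p = 0.016, all spots), a call lost without the first array (0.12, adjusted p = 0.61).

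Slc6a6, the taurine carrier, was called higher at 8 h of NaCl, and not at 45 min or 2 h, in wild type MEFs without inhibitor. Probe A_52_P339996 read 0.21 and 0.41 at 45 min, 0.09 and 0.48 at 2 h, and 1.67 and 1.55 at 8 h. The 8 h arrays lay above all the earlier ones, with a mean of 1.61 ± 0.09 or 3.05-fold (adjusted p = 4.57e-06, all spots). The rise of 1.32 from 2 h to 8 h was called (adjusted p = 0.00314, all spots), and without the first 2 h array it was 1.12 (adjusted p = 0.0501). The second probe, A_52_P178151, read -0.41 and -0.39 at 2 h and 0.99 and 0.43 at 8 h. Its 8 h mean of 0.71 ± 0.40 missed the threshold on unmarked spots (adjusted p = 0.0712) and passed it with all spots (adjusted p = 0.0249), where it rested on the first array (0.43 without it, adjusted p = 0.441).

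The single probes of the betaine and myo-inositol carriers gave no such rise, and no further probe of either gene was measured. The Slc5a3 probe was dim, with a median Cy3 signal of 338 beside array medians of 846 to 1954. Slc6a12 probe A_51_P323812 read 0.01 and -0.01 at 2 h and 0.04 and -0.01 at 8 h of NaCl, and its 15 group means spanned 0.41. Slc5a3 probe A_51_P112762 read -0.84 and -0.27 at 45 min, -0.10 and 0.29 at 2 h, and 0.21 and 0.05 at 8 h. Its 45 min mean of -0.56 ± 0.40 was called lower (adjusted p = 0.0358), which rested on the first array (-0.27 without it, adjusted p = 0.684). The difference of 0.69 between 8 h and 45 min was called only with the replicate block (adjusted p = 0.0953 without it, 0.0151 with it). With SB203580 at 45 min of NaCl, Slc5a3 read -0.58 and -0.38 (-0.48, adjusted p = 0.0465, and 0.366 and 0.171 without the first and second array). Slc6a12 read -0.07 and -0.56 there (-0.31, adjusted p = 0.0222, all spots), a call lost without the second array (-0.07, adjusted p = 0.778). Neither was called higher than the pool in any NaCl group.

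The regulator Sgk and a single probe of the regulator Nfat5 were above the pool at 2 h. Sgk probe A_51_P118237 read 1.53 and 0.76 at 45 min, 2.67 and 1.81 at 2 h, and 3.95 and 3.48 at 8 h. Each later time lay above the one before it on both arrays. The 2 h mean was 2.24 ± 0.61, or 4.73-fold (adjusted p = 0.00016), and the 8 h mean was 3.72 ± 0.33, or 13.1-fold (adjusted p = 4.83e-08, all spots). The 45 min mean of 1.14 ± 0.55 (adjusted p = 0.00676, all spots) was no longer called without the first array (0.76, adjusted p = 0.303). The rise of 1.47 from 2 h to 8 h (95% interval 0.67 to 2.28, adjusted p = 0.0237, all spots) was lost without the second 2 h array (1.04, adjusted p = 0.254) or the first 8 h array (1.24, adjusted p = 0.208).

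Nfat5 probe A_52_P608444 (NM_133957) moved less and with little spread, from 0.46 and 0.37 at 45 min to 1.09 and 0.76 at 2 h and 1.36 and 1.55 at 8 h. The 2 h mean was 0.93 ± 0.24 (adjusted p = 6.34e-05) and the 8 h mean 1.46 ± 0.13, or 2.74-fold (adjusted p = 2.39e-07). The difference of 0.53 between them stood at the threshold, with adjusted p = 0.0521 on unmarked spots, 0.0464 with all spots and 0.0285 with the replicate block. This probe was above the pool on all 30 arrays, and its means in the 8 groups without NaCl lay between 0.35 and 0.49, so part of each ratio was present without salt. Its step from 45 min to 2 h was not called. The other 4 Nfat5 probes (records NM_018823, AK052632 and AK045123) were in no NaCl group of wild type MEFs called higher. Of these, A_52_P54486 read -0.78 and -0.32 at 45 min (-0.55, adjusted p = 0.015, all spots), a call lost without the first array (-0.32, adjusted p = 0.448).

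**Figure D3:**
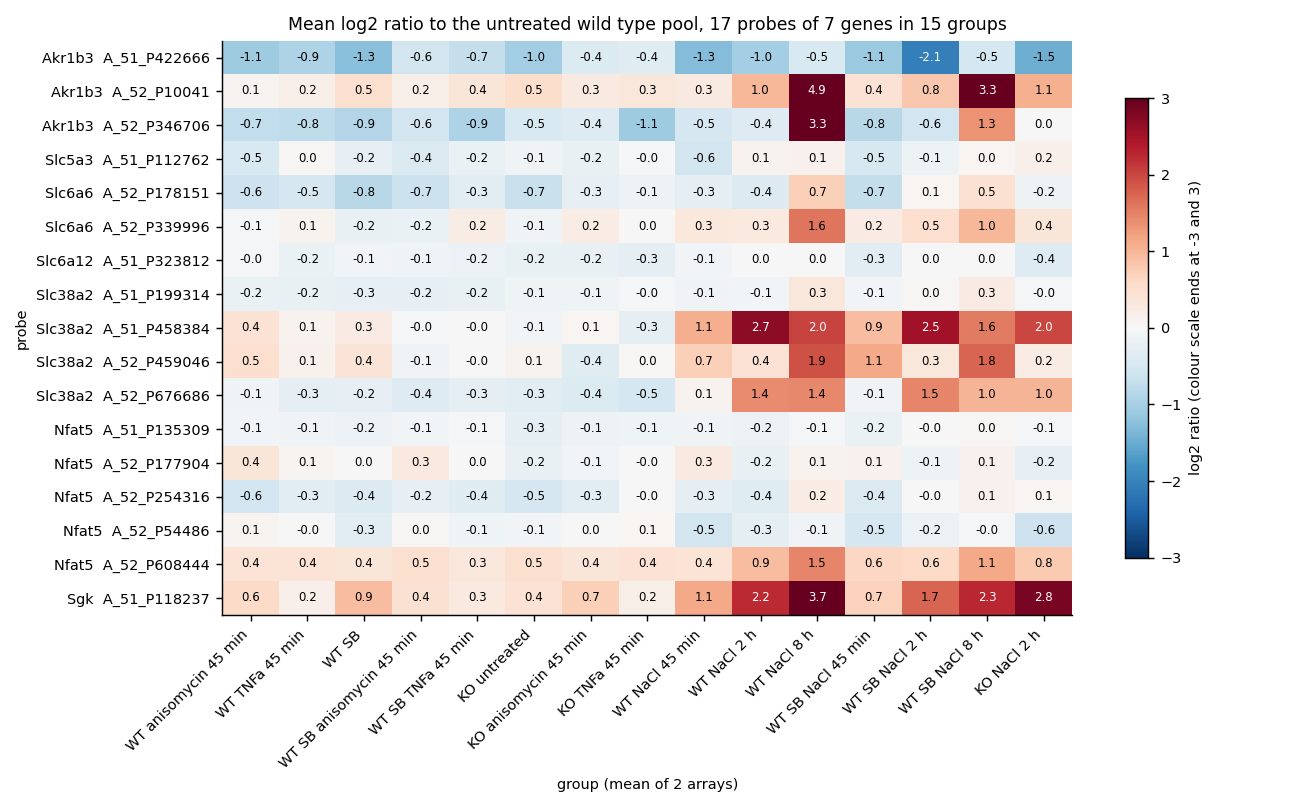
Mean log2 ratio to the pool (colour, ends at 3 and -3, all spots, 2 arrays a group) of the 17 member probes (rows) in the 15 groups (columns). Means reach 4.95 for Akr1b3 and 3.72 for Sgk at 8 h of NaCl, 2.84 for Sgk in p38α-/- MEFs at 2 h, and 2.68 for Slc38a2 in wild type MEFs at 2 h.

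At 45 min the members separated the 3 stresses little. Against the pool, 1 of 8 testable member probes was higher after anisomycin (6.97% of all probes tested) and 1 of 10 after TNFα (7%), in each case Nfat5 probe A_52_P608444 (0.41, adjusted p = 0.0234, and 0.40, adjusted p = 0.0261), which averaged 0.41 at 45 min of NaCl as well. The 1 probe called lower in each (6.39% and 6.23% of all probes) was Akr1b3 A_51_P422666, at -1.06 and -0.92, as it was in most groups. With all spots, Slc38a2 probe A_52_P459046 was also called higher after anisomycin (0.51), and Slc6a6 probe A_52_P178151 lower (-0.63). Both calls were lost without either array (0.47 and 0.54, and -0.52 and -0.73). Sgk read 0.88 and 0.26 after anisomycin and 0.37 and -0.05 after TNFα, beside 1.53 and 0.76 after NaCl. The anisomycin mean of 0.57 was called only with the replicate block (adjusted p = 0.137 without it, 0.0183 with it, all spots). Slc38a2 probe A_51_P458384 read 0.44 and 0.42 after anisomycin and 0.21 and -0.01 after TNFα, beside 1.17 and 1.01 after NaCl. Its NaCl arrays thus lay above both other stresses. No member was called between NaCl and anisomycin (all spots: 0.00729% of all probes higher, 0.248% lower) or between NaCl and TNFα (0.0219% and 0.233%) by limma in either spot set. At an unadjusted p under 0.05 and with all spots, 2 and 5 of the 17 probes differed.

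With SB203580 no member was called different from NaCl alone at 2 h. At 2 h of NaCl with the inhibitor 3 of 10 testable probes were higher than the pool (11.1% of all probes tested), and 6 of 17 with all spots (10.3%). Slc38a2 probe A_51_P458384 read 2.52 and 2.54 with the inhibitor, beside 2.84 and 2.53 without it. Sgk read 1.86 and 1.64, beside 2.67 and 1.81. The differences were -0.16 for Slc38a2 (95% interval -0.66 to 0.35), -0.49 for Sgk (-1.30 to 0.31), -0.19 for Akr1b3 probe A_52_P10041 (-0.71 to 0.33) and -0.34 for Nfat5 probe A_52_P608444 (-0.67 to -0.02). By limma the count was 0 in either spot set, beside 0% of all probes higher and 0.00486% lower with all spots, and 2 of 17 had an unadjusted p under 0.05 with all spots. These intervals still allow a reduction of Sgk by 1.30, so they do not show equal responses.

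At 8 h an Akr1b3 probe was lower with the inhibitor. Probe A_52_P10041 read 3.03 and 3.66 with SB203580 and 4.52 and 5.37 without it, and the groups did not overlap. The difference was -1.60 (95% interval -2.12 to -1.08, adjusted p = 0.0143, all spots), with -1.49 and -1.71 in the first and second replicates, which were scanned in different batches. It was the sole member called, 1 of 17 beside 0.0559% of all probes called lower, and 0 of 6 were called on unmarked spots (0.0758%; 0 of 6 at an unadjusted p under 0.05), where this probe could not be tested because the second array of both groups was marked. The call was lost without the second 8 h array without inhibitor (-1.18, adjusted p = 0.185) or the first with it (-1.29, adjusted p = 0.302). At 8 h of NaCl with inhibitor 3 of 8 testable member probes were higher than the pool (11%), and 8 of 17 with all spots (10.1%). Akr1b3 probe A_52_P10041 was still 10.2-fold above the pool (3.35 ± 0.45, adjusted p = 6.04e-09, all spots).

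Other members were lower with the inhibitor at 8 h by differences that were not called in the model without a block. Akr1b3 probe A_52_P346706 read 0.79 and 1.88 with SB203580 and differed by -1.92 (95% interval -2.84 to -0.99, adjusted p = 0.156, and 0.0111 with the replicate block, all spots). Sgk read 2.02 and 2.5 with it and differed by -1.46 (-2.26 to -0.65, adjusted p = 0.27, and 0.0111 with the block, all spots). The arrays of these probes did not overlap between the groups. Akr1b3 probe A_51_P422666 averaged -0.46 at 8 h without SB203580 and -0.52 with it, and was not called. Slc6a6 probe A_52_P339996 read 0.98 and 1.04, a difference of -0.60 (-1.13 to -0.07). At 2 h with the inhibitor it had read 0.52 and 0.49 (adjusted p = 0.048, all spots), a call lost without either array (0.49 and 0.52, adjusted p = 0.243 and 0.276). Slc38a2 probe A_51_P458384 differed by -0.46 (-0.97 to 0.04) and Nfat5 probe A_52_P608444 by -0.32 (-0.65 to 0.00). Sgk with SB203580 was still above the pool (2.26 ± 0.34, adjusted p = 1.45e-05, all spots). By limma no member was called when the inhibitor's effect at 8 h was set against that at 2 h, in either spot set, beside 0.00486% of all probes in each direction with all spots and 0.00432% on unmarked spots. An unadjusted p under 0.05 was reached by 3 of 17 with all spots and 0 of 5 without marked ones.

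Within the SB203580 series Akr1b3 again stood highest at 8 h. From 2 h to 8 h 5 of 17 probes rose (3.07% of all probes) and 1 fell (3.24%), with all spots. Akr1b3 probe A_52_P10041 went from 0.61 and 1.02 to 3.03 and 3.66, a rise of 2.53 (adjusted p = 1.35e-05, all spots), and its probe A_52_P346706 rose by 1.92 (adjusted p = 0.0117, all spots), a call lost without either 2 h array (2.00 and 1.83, adjusted p = 0.057 and 0.104) or the second 8 h array (1.37, adjusted p = 0.189). Slc38a2 probe A_52_P459046 read 1.76 and 1.75 at 8 h and rose by 1.43 (adjusted p = 0.00153, all spots). Sgk and Slc6a6 probe A_52_P339996 differed by 0.51 each between those times (adjusted p = 0.658 and 0.355, all spots) and were not called, beside 1.47 and 1.32 without the inhibitor. Nfat5 probe A_52_P608444 was called, with a rise of 0.55 from 2 h to 8 h, beside 0.53 without the inhibitor. This call was lost without any single array of these groups (0.48 to 0.62). It also fell short with the p38α-/- arrays left out (adjusted p = 0.0575, all spots). Akr1b3 probe A_51_P422666 was called too, from a mean of -2.06 to -0.52, though neither 2 h spot was well above background. That call was lost without either 2 h array or the first 8 h array. Between 45 min and 2 h, Nfat5 probe A_52_P608444 differed by -0.04 with the inhibitor and by 0.51 without it, neither called (adjusted p = 0.991 and 0.344, all spots). The one that fell was Slc38a2 probe A_51_P458384, from 2.52 and 2.54 to 1.16 and 1.95, by 0.97 (-0.97, adjusted p = 0.019, all spots), and it was no longer called without either 2 h array (-0.98 and -0.96, adjusted p = 0.0958 and 0.123) or the first 8 h array (-0.57, adjusted p = 0.362).

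With the inhibitor alone the share of members called was near that of all probes. On unmarked spots 1 of 9 testable probes was higher (16.8% of all probes tested) and 2 lower (12.8%), and with all spots 3 of 17 were higher (14.9%) and 4 lower (27.5%). Sgk read 1.44 and 0.40 (0.92 ± 0.73, adjusted p = 0.0119, all spots), and Akr1b3 probe A_52_P10041 read 0.71 and 0.24 (0.48, adjusted p = 0.0371, all spots). Slc6a6 probe A_52_P178151 read -1.33 and -0.32 (adjusted p = 0.0302). For Sgk and these Akr1b3 and Slc6a6 probes the first array lay farther from the pool, and without it none was called (0.40, 0.24 and -0.32). The other Akr1b3 probe from the same transcript record, A_52_P346706, was called lower, with -1.06 and -0.72 (mean -0.89, all spots). That call was lost without either array and with the authors' values (-0.735, adjusted p = 0.0739). The calls of these Akr1b3 probes thus went in opposite directions.

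In p38α-/- MEFs Sgk and some Slc38a2 probes were higher after salt. Against the pool 3 of 13 testable probes were higher at 2 h of NaCl (9.54% of all probes tested) and 2 lower (10.3%), and with all spots 5 of 17 higher (9.68%) and 3 lower (13.3%). Sgk read 0.67 and 0.17 untreated and 2.91 and 2.77 after 2 h of NaCl (2.84 ± 0.10, or 7.18-fold over the pool, adjusted p = 2.36e-05). The rise within the line was 2.42 (95% interval 1.62 to 3.23, adjusted p = 0.0045), and fell short in a fit of the p38α-/- arrays alone (adjusted p = 0.0624) and without the second NaCl array (2.49, adjusted p = 0.0542). Slc38a2 probe A_51_P458384 read 2.09 and 1.93 after NaCl and rose by 2.10 (adjusted p = 0.000166, all spots). Its probe A_52_P676686 read 0.99 and 1.03 and rose by 1.34 (adjusted p = 0.0264), which fell short in the fit of that line alone (adjusted p = 0.0561) and without any 1 of the 4 arrays (1.30 to 1.39, adjusted p from 0.0553 to 0.217). Sgk and A_52_P676686 were the 2 of 11 testable probes called higher over untreated p38α-/- MEFs (0.622% of all probes tested). With all spots 3 of 17 were called (0.542%). The other Slc38a2 probes were not called. A_52_P459046 averaged 0.10 untreated and 0.22 after NaCl, and A_51_P199314 averaged -0.12 and -0.04. The untreated Sgk mean of 0.42 was itself above the pool only with the replicate block (adjusted p = 0.227 without it, 0.0466 with it). Neither anisomycin nor TNFα gave a member call over the untreated line, 0 of 17 by limma with all spots (0.0461% and 0.0753% of all probes higher) and 0 at an unadjusted p under 0.05.

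Akr1b3 and Nfat5 were not called between NaCl and untreated p38α-/- MEFs, for which 2 h was the one NaCl time measured. Akr1b3 probe A_52_P10041 read 0.76 and 0.31 untreated and 1.26 and 0.86 after NaCl, a difference of 0.53 (95% interval 0.01 to 1.05, adjusted p = 0.42, all spots). Nfat5 probe A_52_P608444 read 0.39 and 0.57 untreated and 0.84 and 0.73 after NaCl, a difference of 0.31 (-0.02 to 0.63, adjusted p = 0.463). Slc6a6 probe A_52_P339996 read 0.27 and 0.47 after NaCl. Slc6a12 read -0.34 and -0.44 after NaCl (-0.39, adjusted p = 0.0481), a call lost in the fit of that line alone (adjusted p = 0.0967) and without either array (-0.44 and -0.34, adjusted p = 0.163 and 0.316).

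Set directly against wild type MEFs at 2 h of NaCl, no member was called in either direction by limma in either spot set, beside 0.21% of all probes tested higher and 0.401% lower, and 2 of 17 had an unadjusted p under 0.05 with all spots. The difference (p38α-/- minus wild type) was 0.60 for Sgk (95% interval -0.20 to 1.41, adjusted p = 0.5), -0.67 for Slc38a2 probe A_51_P458384 (-1.18 to -0.17, adjusted p = 0.234, all spots) and 0.05 for Akr1b3 probe A_52_P10041 (-0.47 to 0.58). For Slc6a12 it was -0.39 (-0.69 to -0.10, adjusted p = 0.237, all spots). The first p38α-/- replicate was scanned with the second wild type replicate, and within that batch the differences were 1.11 for Sgk, -0.44 for Slc38a2 and 0.32 for Akr1b3.

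**Figure D4:**
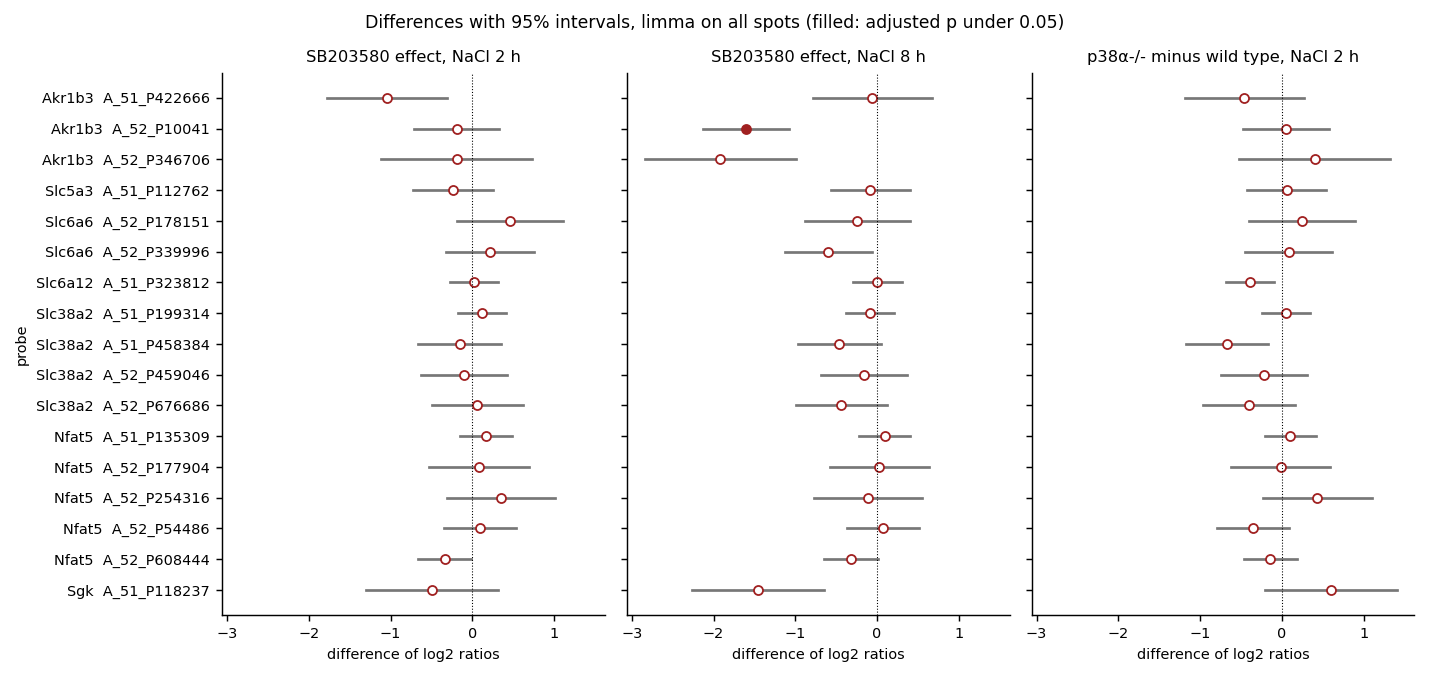
Difference in log2 ratio (x axis) with its 95% interval for the 17 member probes (rows, all spots) with SB203580 at 2 h and 8 h of NaCl (each minus NaCl alone) and in p38α-/- minus wild type MEFs at 2 h of NaCl. Filled points were called, and the only one is Akr1b3 probe A_52_P10041 at 8 h, at -1.60.

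Genes around the members were read from 6 lists of the same pathway. At 8 h of NaCl 10.5% of all probes tested were higher and 10.1% lower, against which the counts of the lists stand. Among 14 probes of 9 other NFAT5 targets, 3 of 7 testable probes were higher and none lower, and the median was 0.14 beside 0.01 over all probes tested. With all spots 7 of 14 were higher, beside 9.63% of all probes, with a median of 0.40 beside -0.03. Hspa4l, a heat shock protein of the HSP110 family, led them: its probe A_52_P652704 read 3.16 and 3.68 at 8 h (3.42 ± 0.37, adjusted p = 3.65e-11, all spots) and its probe A_52_P75568 read 2.00 and 1.85 (adjusted p = 3.32e-06). Ccl2, a chemokine that attracts monocytes, read 1.18 and 1.04 (1.11, adjusted p = 0.000411).

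Of 22 probes for osmolyte synthesis and breakdown, 2 of 12 testable were higher (10.5% of all probes) and 5 lower (10.1%) at 8 h, with a median of -0.40. Gpcpd1, which frees glycerol-3-phosphate and choline from the osmolyte glycerophosphocholine, was among the lower. Its probe A_51_P464791 read 0.72 and 0.48 at 2 h (adjusted p = 0.0195) and -1.60 and -1.02 at 8 h (-1.31 ± 0.41, adjusted p = 1.42e-05), so it lay above the pool at 2 h and below it at 8 h, and a second probe, A_52_P470017, read -1.36 and -1.16 at 8 h (adjusted p = 3.94e-05). Isyna1, which makes the inositol backbone, read 0.92 and 1.09 at 8 h (1.00 ± 0.12, adjusted p = 0.000269).

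Of the 22 probes for other carriers of osmolytes and neutral amino acids, 3 of 13 testable were higher (10.5% of all probes) and 1 lower (10.1%) at 8 h. Slc38a4, a relative of Slc38a2, read 1.29 and 0.99 at 2 h (adjusted p = 0.000291) and 2.35 and 2.89 at 8 h (2.62 ± 0.39, adjusted p = 1.74e-08) with probe A_52_P48569, and 1.00 and 0.61 at 8 h with probe A_52_P12403 (adjusted p = 0.000122). Slc3a2, the heavy chain of several amino acid exchangers, was lower at 2 h (-1.13 and -0.80, adjusted p = 0.0321). Of 26 probes for ion transport, found for 15 of 16 genes, 2 of 15 testable were higher and 1 lower at 8 h, near the shares of all probes. Lrrc8a, a subunit of the volume-regulated anion channel, was lower (-0.50, adjusted p = 0.00952), and Oxsr1, a kinase that acts on cation-chloride cotransporters, was higher (0.47, adjusted p = 0.0115). Of the SGK relatives and substrates 1 of 9 was higher, Nedd4l, a ubiquitin ligase (0.72 and 1.19, adjusted p = 0.00256), and of the NFAT relatives 1 of 7, Nfatc1 (0.48, adjusted p = 0.0151). None in these last 2 lists was lower at 8 h, and a single call in lists of that size is near the 10.5% of all probes.

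For 5 members the genes of most similar pattern over the 15 group means were sought among 9489 probes, by Pearson r on the member's probe of highest mean Cy3 signal. The groups share the pool and some share a scan, so r is a description. The closest to Akr1b3 (A_52_P346706) were St3gal6, Nol8 and Meak7, each with r = 0.97. Slc6a6 (A_52_P339996) was closest to Tmod3 (0.95), Sec14l1 (0.93) and Hccs (0.93), and Slc38a2 (A_51_P458384) to Twist1 (0.95), Zswim6 (0.95) and 4930519N16Rik (0.94). Nfat5 (A_52_P608444) was closest to BC065123 (0.96), BC010250 (0.96) and Hccs (0.95), and Sgk to Myh6 (0.95), Ppm1d (0.94) and 4930519N16Rik (0.94). St3gal6, a sialyltransferase, averaged 0.64 at 2 h of NaCl and 4.11 at 8 h. Slc5a3 and Slc6a12 spanned less than 1 log2 unit over the groups and were not matched.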

How the data were processed

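RNA of 30 MEF cultures was hybridised to 2-colour Agilent 44K arrays. The authors extracted the spots in Feature Extraction from Agilent, which the file headers give as version 8.1.1.1 and the submitters' processing notes as 9.1, without local background subtraction, with spatial detrending and with linear and LOWESS dye normalization. The deposited intensity columns hold signals of both dyes, and the deposited log10 ratio is Cy5 over Cy3, multiplied here by 3.32 to give log2. The authors also deposited a log2 table of 1 value per probe, used as an alternative.

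limma 3.58.1 (R 4.3.3) fitted 15 group means to 30 arrays, probe by probe, without control spots and spots marked as outliers, leaving 15 residual degrees of freedom, with Benjamini-Hochberg adjustment over all probes tested. The same fit was run with all spots. Python 3.11.15 (pandas 2.3.3, numpy 2.4.6, matplotlib 3.10.9) made the counts and figures. The sample titles number the replicates, which the study describes as independent experiments. Equal numbers paired the arrays within a genotype: all 55 wild type pairs and all 6 p38α-/- pairs of groups had correlated deviations above 0.1 (0.17 to 0.71 and 0.12 to 0.45), against 5 of 44 pairs across genotypes, so a fit with the replicate as a block within genotype is given where it changed a call. Between arrays, 6.78 to 44.8% of spots were marked as outliers, and 81.1 to 96.8% were well above background in Cy5. The number of arrays limits the precision.

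The members and gene lists were chosen with earlier results of these data known. All member probes are named, and from each list at most the 3 probes with the largest mean among those called at 2 h or 8 h of NaCl. On data simulated with changes of 2 log2 units and independent noise, 92% of changed probes were recovered for 27912 probes at NaCl 8 h. For 25854 probes at 8 h minus 2 h it was 81.8%. Smaller changes and correlated replicates were not simulated, so these shares do not give the recovery of smaller member differences. Alternatives were all spots, normexp background correction (offset 50) with loess, the deposited table, spots well above background, the block, the scan batch, arrays of one genotype and each array left out.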

Additional observations from a re-analysis of the deposited data

Results flagged for a closer look

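In 8 cases a difference of inductions was called for a member probe in limma with all spots. It set SB203580 or p38α-/- MEFs against wild type MEFs. Each is the stress minus its own unstressed group, minus the wild type ratio to the pool, so 1 dye effect is left in it. A steady offset of the probe from the pool is left in it as well, so the value alone does not show a different response. The titles give 2 h for the only group of SB203580 alone. At 8 h of NaCl the unstressed group is therefore not matched in time. Over all probes the median of this difference lay between 0.07 and 0.11 with all spots and between -0.08 and -0.03 on unmarked spots, and the values below were not corrected for that. Of all probes, 1.16% were called lower and 2.27% higher in this way for SB203580 at 8 h of NaCl, 2.8% and 6.59% at 2 h, and between 5.79% and 7.04% higher for anisomycin and TNFα in either comparison.

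Akr1b3 probe A_52_P10041 at 8 h of NaCl had a difference of -2.08 with SB203580 (adjusted p = 0.00245). It alone was also called when set directly against wild type MEFs at the same stress, in limma with all spots and no block. For Sgk at 8 h the difference was -2.37 (adjusted p = 0.0167), and it was lost without any 1 of 4 arrays, with -1.85 (adjusted p = 0.172) without the first array of SB203580 alone as the smallest. Nfat5 probe A_52_P608444 at 2 h had a difference of -0.70 with SB203580 (adjusted p = 0.031, and 0.0607 on unmarked spots), which was lost without any 1 of 4 arrays (-0.74 to -0.54), and Slc6a6 probe A_52_P178151 at 2 h one of 1.28 (adjusted p = 0.0419), which was lost without any 1 of 5 arrays, with 0.78 (adjusted p = 0.338) without the first array of SB203580 alone as the smallest, and with the authors' values (1.16, adjusted p = 0.0539). The other 4 belong to Akr1b3 probe A_51_P422666, which was below the pool on all 30 arrays. Its means after anisomycin were -1.06 in wild type MEFs, -0.56 with SB203580 and -0.41 in p38α-/- MEFs. After TNFα they were -0.92, -0.71 and -0.36. With SB203580 its difference was 1.76 for anisomycin (adjusted p = 0.0253) and 1.47 for TNFα (adjusted p = 0.0412), and in p38α-/- MEFs 1.69 for anisomycin (adjusted p = 0.0248) and 1.60 for TNFα (adjusted p = 0.0308). On unmarked spots none of these 4 was called (adjusted p = 0.0592, 0.0984, 0.0742 and 0.0901). With all spots each of the 4 was also lost without at least 4 single arrays, the lowest value being 1.00 (adjusted p = 0.288) for TNFα with SB203580, without the first array of SB203580 alone.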

How the results depend on the processing

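No called member value changed direction under any alternative run. The counts of higher probes depended most on marked spots, since fewer probes could be tested without them. At NaCl 45 min the count went from 0 to 4 with all spots, with the deposited table, and with all spots plus the replicate block or the arrays of one genotype. At 2 h it went from 2 to 5 with all spots and the deposited table, to 6 with all spots plus the block or one genotype, and to 1 at a mean of at least 2.5-fold. At 8 h it went from 3 to 10 under the same 4 alternatives. For 8 h minus 2 h it went from 1 to 7 with all spots, 6 with all spots and one genotype, 8 with the deposited table and with all spots plus the block or the scan batch, and 2 with normexp, spots well above background, the block or the scan batch. Lower with SB203580 at 8 h went from 0 to 1 with all spots, the deposited table and one genotype with all spots, and to 3 with all spots plus the block or the scan batch. Leaving out each array gave 0 to 1 at 45 min (1 to 3 with all spots), 2 to 4 at 2 h (5 with all spots), 4 to 9 at 8 h (8 to 11), 1 to 5 for 8 h minus 2 h (4 to 8), 0 for SB203580 at 8 h (0 to 2) and 0 for lower in p38α-/- MEFs at 2 h of NaCl (0 to 2).

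Of 117 called member values, 43 from unmarked and 74 from all spots, the replicate block with all spots ended none of 117 calls, and on unmarked spots it ended 6 of 55. It changed no other call of a member value printed in the report than those named there. Normexp ended 6 of 55, taking Akr1b3 probe A_51_P422666 with SB203580 from 1.76 to 0.60 for anisomycin and from 1.47 to 0.48 for TNFα, the authors' values 9 of 116 and one genotype 15 of 115 with all spots and 21 of 53 on unmarked spots. Leaving out single arrays ended 142 of 322 with all spots and 109 of 190 on unmarked spots. With 2 arrays a group, the spread of a lone array is assumed to be that of the other groups. Dim spots limit Akr1b3 probe A_51_P422666.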
